A study of Mus musculus with 8 samples.

Results

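The genes described are 10 that are known from mast cells and basophils: Cpa3, Mcpt8, Hdc, Fcer1a, Fcer1g, Ms4a2, Gzmb, Tpsb2, Cma1 and Srgn. They were taken by symbol from the deposited table of 56748 genes, and each of the 10 was found as 1 protein-coding row. All 8 libraries were made from 32D, a murine myeloid line of bone marrow origin that needs interleukin-3 to grow. The Jak2WT and Jak2V617F cells carried a transduced murine Jak2 transgene, as given in the study's methods. Each background was represented by 2 GLUT1/3 WT clones and 2 GLUT1/3 dKO clones, in which CRISPR had been aimed at Slc2a1 and Slc2a3, the genes of the glucose transporters GLUT1 and GLUT3. Before poly(A) RNA was sequenced, all groups spent 24 hours in medium with interleukin-3 at 2 ng/ml, glutamine at 1 mM and glucose at 5 mM. Each library is 1 single-cell clone of a transduced cell line, and each background is 1 transduced line. A p-value rests on the spread between the 2 clones of a group, pooled over the 4 groups and drawn toward that of other genes. It does not cover the spread between separately transduced lines.

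Mast cells and basophils store preformed mediators in granules, where the proteoglycan serglycin (Srgn) holds positively charged proteases and histamine. Carboxypeptidase A3 (Cpa3), the chymase Cma1 and the tryptase Tpsb2 are mast cell proteases, while Mcpt8 is the hallmark protease of mouse basophils. Granzyme B (Gzmb) is best known from cytotoxic lymphocytes and is also made by mast cells. Hdc encodes histidine decarboxylase, the enzyme that makes histamine. Both cell types carry the high-affinity IgE receptor, built from an IgE-binding alpha chain (Fcer1a), a signal-amplifying beta chain (Ms4a2) and the common gamma chain (Fcer1g), which other Fc receptors share.

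The libraries held 16846011 to 48884329 counted reads, and 10773 to 11190 genes reached 1 FPKM (fragments counted on a gene, scaled by its length and by a library total) in a library. Slc2a1 stood at 44.7 to 64.0 FPKM in the GLUT1/3 WT libraries and at 9.17 to 17.3 FPKM in the dKO libraries. Slc2a3 stood at 91.9 to 198 FPKM in the GLUT1/3 WT libraries and at 16.0 to 49.5 FPKM in the dKO libraries, so that no library went against its label. The 2 clones of a group differed beyond counting noise in every group. Jak2V617F dKO clone 3 stood above clone 1 of its group in several granule genes, and the Cpa3, Gzmb and Srgn differences of its group are given below with and without it. Tests used limma on log2(FPKM + 1) over the 11818 genes that reached 1 FPKM in at least 2 libraries, and a call is an adjusted p under 0.05. With each library scaled to the same summed FPKM, the all-gene split of calls moved from 901 higher and 716 lower to 706 and 1378 for dKO in Jak2WT. It moved from 1614 and 1919 to 2192 and 1452 for dKO in Jak2V617F, from 1812 and 1765 to 1223 and 2930 for Jak2V617F against Jak2WT in GLUT1/3 WT cells, and from 558 and 698 to 1177 and 393 for the interaction.

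Gzmb, Srgn, Cpa3 and Fcer1g passed the expression filter. Hdc was found in all 8 libraries without reaching 1 FPKM in any. Mcpt8, Cma1, Fcer1a and Ms4a2 had 23, 21, 13 and 3 reads in all 8 libraries together, and Tpsb2 was listed at 0 throughout. The 2 IgE receptor chains that are specific to that receptor were therefore at or near 0, while the shared gamma chain was present in every library.

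**Figure D1:**
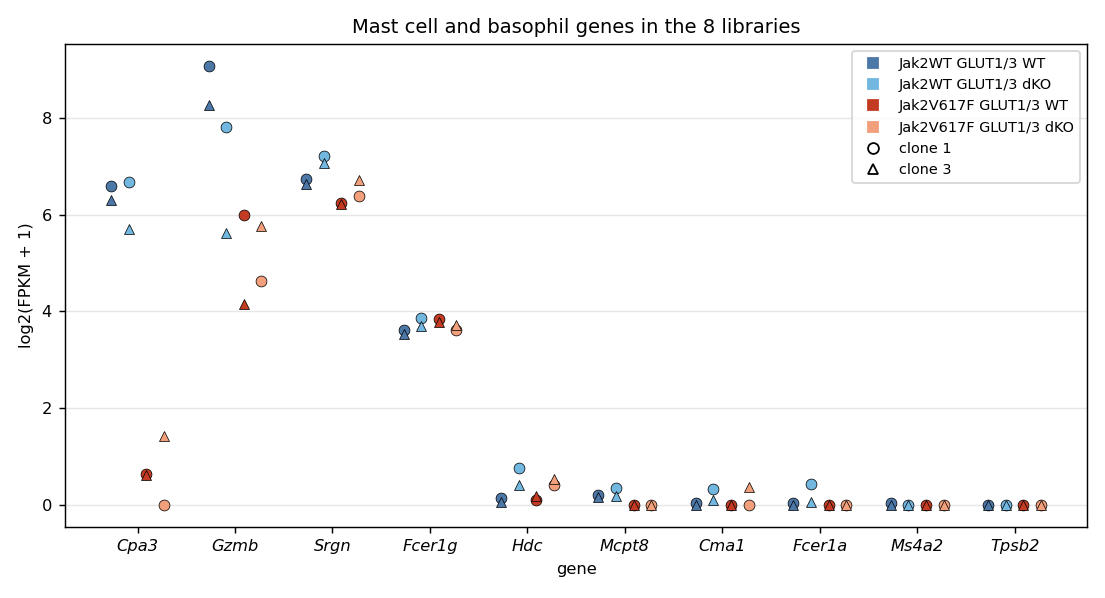
Level of each of the 10 genes, as log2(FPKM + 1), in each of the 8 libraries; colours give the 4 groups, circles clone 1 and triangles clone 3. Cpa3 separates the Jak2WT libraries, at 50.8 to 100.5 FPKM, from the Jak2V617F libraries, at 0 to 1.67 FPKM, while Fcer1g stays between 10.6 and 13.5 FPKM.

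The upstream sequences of Cpa3 and Gzmb are shown because these genes had the largest group differences. Both are the 250 bases before the start of the canonical GENCODE transcript on GRCm39, read 5′ to 3′ on the minus strand. The Cpa3 window is chr3:20296363-20296612 and the Gzmb window is chr14:56499718-56499967. Capitals mark matches, on either strand, to 3 motifs. These are the GATA core, spelled GATAA and read on the other strand as TTATC. The others are the E-box, which has the letters CANNTG, and the STAT-type element, which has the letters TTCNNNGAA.
Cpa3: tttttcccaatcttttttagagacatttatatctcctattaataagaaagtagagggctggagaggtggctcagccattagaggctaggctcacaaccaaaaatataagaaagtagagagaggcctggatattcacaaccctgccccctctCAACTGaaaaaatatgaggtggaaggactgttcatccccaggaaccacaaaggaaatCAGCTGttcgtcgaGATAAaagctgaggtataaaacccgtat
Gzmb: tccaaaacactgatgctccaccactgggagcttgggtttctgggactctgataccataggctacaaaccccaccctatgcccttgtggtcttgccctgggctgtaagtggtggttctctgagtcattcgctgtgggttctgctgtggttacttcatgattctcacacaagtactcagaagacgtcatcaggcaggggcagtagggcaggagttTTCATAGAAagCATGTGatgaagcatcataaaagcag
The Cpa3 window held 1 GATA core, 28 to 24 bases upstream of the start, and 2 E-boxes. The Gzmb window held 1 E-box and 1 STAT-type element and no GATAA. Over the same windows of 21770 protein-coding genes, 22.4% held a GATA core, 64.8% an E-box and 7.70% a STAT-type element. In Cpa3 the nearer E-box and the GATA core are separated by 8 bases, and CANNTGNNNNNNNNGATAA in either orientation was found in 18 of the 21770 windows. That spacing was searched for after the Cpa3 sequence had been seen. A match describes the letters of the window only. Cpa3 (ENSMUSG00000001865) lies on chromosome 3 at 20269784 to 20296345 in the deposited table, on the minus strand, with 11 exons in its canonical transcript. Gzmb (ENSMUSG00000015437) lies on chromosome 14 at 56496295 to 56499717, on the minus strand, with 5 exons. Cma1 and Mcpt8 are on the same strand of chromosome 14, from 56178908 and from 56319623.

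The question behind the first comparison was how Jak2V617F cells differ from Jak2WT cells when both have intact glucose transporters. Of the 4 members tested, 3 were called lower in the Jak2V617F clones and none higher, against 14.9% of all tested genes called lower and 15.3% called higher. Cpa3 read 94.8 and 78.2 FPKM in the Jak2WT clones and 0.554 and 0.531 FPKM in the Jak2V617F clones. In reads, that was 5693 and 2058 against 18 and 24. Both Jak2WT clones were far above both Jak2V617F clones. The group means, 86.5 ± 11.7 and 0.542 ± 0.0165 FPKM (SD, n = 2), differ 159-fold. On the log2(FPKM + 1) scale, which understates the change of a gene this low, limma gave -5.82 ± 0.46 (SE) with adjusted p = 0.000438.

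In Jak2WT cells with intact transporters, Gzmb read 538 and 309 FPKM, where it ranked as the 57th and the 117th gene by FPKM. In the Jak2V617F GLUT1/3 WT clones it read 62.2 and 16.9 FPKM. The ranges do not overlap, although clones of a group differed by as much as 3.69-fold. The group means differ 10.7-fold, and limma gave -3.60 ± 0.83 (SE) on the log2 scale with adjusted p = 0.0163. That call was lost without Jak2WT clone 1 (limma, adjusted p = 0.0864), without Jak2WT clone 3 (0.0525) and without Jak2V617F clone 3 (0.0798), with log2 differences of -3.20, -4.00 and -2.69.

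Srgn read 105 and 98.2 FPKM in Jak2WT and 75.1 and 73.2 FPKM in Jak2V617F GLUT1/3 WT clones. The Jak2V617F clones were lower without overlap, and the means differ 1.37-fold. limma gave -0.45 ± 0.12 (SE) on the log2 scale with adjusted p = 0.0276, and leaving out any 1 of these 4 libraries raised the adjusted p to between 0.0826 and 0.138. Fcer1g read 11.3 and 10.6 FPKM in the Jak2WT clones and 13.2 and 12.7 FPKM in the Jak2V617F clones. Its Jak2V617F clones were above the Jak2WT clones, but limma did not call the difference of 0.23 on the log2 scale (95% interval 0.017 to 0.434, adjusted p = 0.0946).

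**Figure D2:**
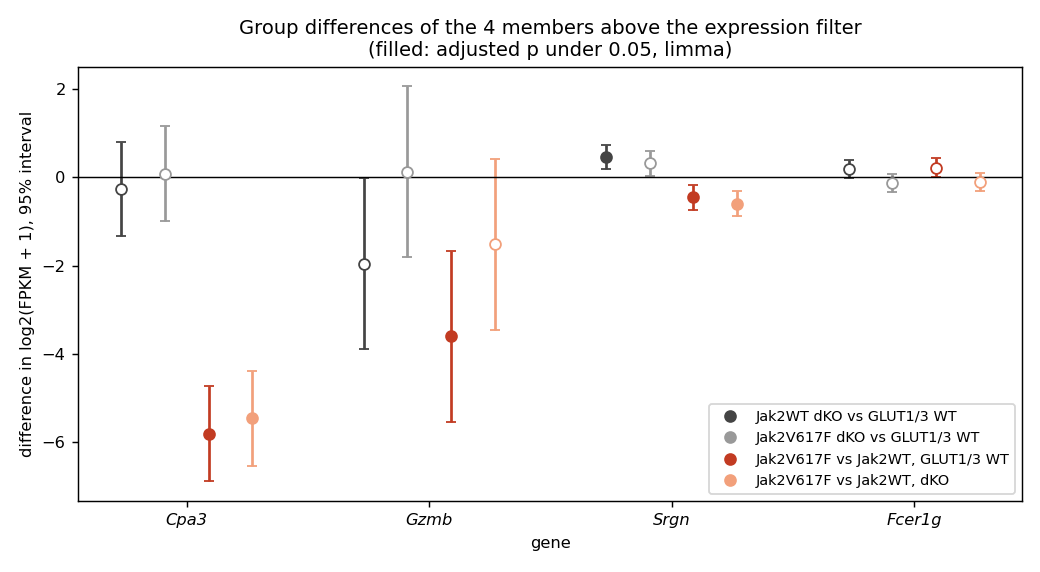
Differences in log2(FPKM + 1) between groups for the 4 members above the expression filter, with 95% intervals from limma; filled points have an adjusted p under 0.05. The 2 Cpa3 differences between backgrounds, -5.82 and -5.47, are the largest, and the Gzmb intervals are the widest.

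The same question asked in dKO cells gave 2 members lower, Cpa3 and Srgn, and none higher, against 9.96% of tested genes lower and 7.12% higher. Cpa3 read 100.5 and 50.8 FPKM in the Jak2WT dKO clones. In the Jak2V617F dKO clones it was listed at 0 in clone 1, where 3 reads would have been 0.0569 FPKM, and at 1.67 FPKM from 64 reads in clone 3. Both Jak2WT clones were again above both Jak2V617F clones. The means differ 90.5-fold, and limma gave -5.47 ± 0.46 (SE) on the log2 scale with adjusted p = 0.000612. Without Jak2V617F dKO clone 3, the difference was -6.18, and without clone 1 it was -4.76. The limma call on Cpa3 held in both backgrounds' comparisons under all 18 alternatives, with adjusted p from 0.000208 to 0.0123.

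Srgn read 148 and 134 FPKM in the Jak2WT dKO clones and 82.7 and 104 FPKM in the Jak2V617F dKO clones. The Jak2V617F clones were lower without overlap and the means differ 1.51-fold (limma, -0.59 ± 0.12 (SE) on the log2 scale, adjusted p = 0.0167). The call was lost without Jak2WT dKO clone 1 (limma, adjusted p = 0.109), without Jak2WT dKO clone 3 (0.0560) and without Jak2V617F dKO clone 1 (0.0562). Without Jak2V617F dKO clone 3 limma gave -0.76 with adjusted p = 0.00626. Gzmb read 222 and 48.5 FPKM in the Jak2WT dKO clones and 23.7 and 53.6 FPKM in the Jak2V617F dKO clones. These ranges overlap, and limma did not call the log2 difference of -1.52 (95% interval -3.46 to 0.42, adjusted p = 0.255). It was -0.43 without Jak2WT dKO clone 1 and -2.60 without Jak2WT dKO clone 3. Without Jak2V617F dKO clone 1 it was -0.94, and without Jak2V617F dKO clone 3 it was -2.09. Fcer1g read 13.5 and 11.96 FPKM in the Jak2WT dKO clones and 11.3 and 12.2 FPKM in the Jak2V617F dKO clones. The ranges overlap, and the log2 difference was -0.10 (95% interval -0.312 to 0.105, limma adjusted p = 0.469).

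The next question was what loss of both transporters changed within a background. In Jak2WT cells 1 of 4 tested members was called, Srgn, which was higher in the dKO clones, against 7.62% of tested genes higher and 6.06% lower. Srgn rose 1.38-fold, from a mean of 102 ± 5.03 to 141 ± 9.87 FPKM (SD, n = 2), and both dKO clones were above both GLUT1/3 WT clones. limma gave 0.46 ± 0.12 (SE) on the log2 scale with adjusted p = 0.0448. Leaving out any 1 of these 4 libraries ended the call, with adjusted p between 0.109 and 0.213. Without either Jak2V617F GLUT1/3 WT clone, which enters only the shared spread, limma gave an adjusted p of 0.0623 or 0.0619.

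Gzmb went from 538 and 309 FPKM without to 222 and 48.5 FPKM with the knockout. Both dKO clones were below both GLUT1/3 WT clones and the means differ 3.12-fold, but limma gave an adjusted p of 0.156 for -1.96 ± 0.83 (SE) on the log2 scale. On reads recovered from the FPKM values, limma with voom weights gave -2.08 with adjusted p = 0.0481. Leaving out libraries moved the difference between -3.05, without Jak2WT dKO clone 1, and -0.87, without Jak2WT dKO clone 3, with limma adjusted p from 0.103 to 0.555. Cpa3 had a mean of 75.7 ± 35.1 FPKM in the dKO clones against 86.5 ± 11.7 FPKM (SD, n = 2), and the clones overlapped. Its log2 difference was -0.26 (95% interval -1.34 to 0.81, limma adjusted p = 0.736). Fcer1g stood at 10.6 to 11.3 FPKM without and at 11.96 to 13.5 FPKM with the knockout, a log2 difference of 0.20 (95% interval -0.0088 to 0.408, limma adjusted p = 0.173).

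In Jak2V617F cells none of the 4 members was called by limma for dKO, and at an unadjusted p under 0.05 there was 1, Srgn. Over all tested genes 13.7% were called higher and 16.2% lower in that comparison. Srgn read 75.1 and 73.2 FPKM before and 82.7 and 104 FPKM after the knockout. Both dKO clones were above both GLUT1/3 WT clones, and limma gave 0.32 on the log2 scale with adjusted p = 0.0821. Without dKO clone 1 limma gave 0.49 with adjusted p = 0.0216, and without dKO clone 3 it gave 0.15 with adjusted p = 0.315. Voom on recovered reads and scaling to the same total also called it (limma, adjusted p = 0.0223 and 0.0362). Gzmb means were 38.7 ± 21.2 FPKM in dKO and 39.5 ± 32.1 FPKM in GLUT1/3 WT clones (SD, n = 2), and the ranges overlap. The log2 difference of 0.13 had a 95% interval from -1.81 to 2.07 (limma, adjusted p = 0.925), and it was -0.44 without dKO clone 3. Cpa3 differed by 0.084 (95% interval -0.992 to 1.160, limma adjusted p = 0.910), and without dKO clone 3 by -0.63. Both Fcer1g dKO clones, at 11.3 and 12.2 FPKM, were below the GLUT1/3 WT clones at 13.2 and 12.7 FPKM, with a log2 difference of -0.13 (95% interval -0.338 to 0.079, limma adjusted p = 0.308).

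The dKO difference in Jak2V617F cells minus that in Jak2WT cells was called for none of the 4 members by limma, against 4.72% of tested genes called higher and 5.91% called lower. By voom on recovered reads the count was also 0. At an unadjusted p under 0.05 there was 1 such member, Fcer1g, with -0.33 on the log2 scale and a limma adjusted p of 0.132. For Gzmb the difference between backgrounds was 2.09 ± 1.17 (SE), with a 95% interval from -0.659 to 4.83 (limma, adjusted p = 0.273). It ran from 1.00 without Jak2WT dKO clone 3 to 3.17 without Jak2WT dKO clone 1. The Srgn difference was -0.14 ± 0.17 (SE) with limma adjusted p = 0.618, so that its call in Jak2WT alone does not show that dKO acted differently in the backgrounds. For Cpa3 it was 0.35 ± 0.65 (SE), adjusted p = 0.761 by limma. An exact permutation test of 2 clones against 2 cannot go below p = 0.33, so none was used.

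Hdc, below the filter, was the low member with the most reads. It read 0.111 and 0.0451 FPKM in Jak2WT GLUT1/3 WT clones, from 28 and 5 reads. In the Jak2WT dKO clones it read 0.696 and 0.333 FPKM, from 127 and 105 reads. In Jak2V617F cells it read 0.0658 and 0.142 FPKM without and 0.338 and 0.447 FPKM with the knockout, from 9, 27, 75 and 72 reads. In each background both dKO clones were above both GLUT1/3 WT clones, by 6.61-fold in Jak2WT and 3.78-fold in Jak2V617F cells on the group means. Leaving out 1 clone moved the first fold between 4.28, without Jak2WT dKO clone 1, and 11.4, without Jak2WT GLUT1/3 WT clone 1. It moved the second between 2.77 and 5.96, without GLUT1/3 WT clone 1 and clone 3. In a fit without the expression filter the Hdc differences were 0.48 and 0.33 on the log2(FPKM + 1) scale. That scale understates the change of a gene this low. There limma gave adjusted p = 0.111 and 0.166, so neither was called, which does not show that Hdc was unchanged.

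Mcpt8, the basophil protease, had 6 and 2 reads in Jak2WT clones with intact transporters and 8 and 7 reads in Jak2WT dKO clones. It was listed at 0 in all 4 Jak2V617F libraries. Against a floor of 3 reads over a group, its pooled level was at least 2.40-fold higher in Jak2WT than in Jak2V617F GLUT1/3 WT cells and at least 3.85-fold higher in dKO cells. Without Jak2WT GLUT1/3 WT clone 1, the 2 reads left are under the floor and give no bound for GLUT1/3 WT cells. In the unfiltered fit limma gave adjusted p = 0.107 and 0.0520 for these differences. Such bounds cover counting error only.

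The chymase Cma1 had 1, 0, 8 and 4 reads in the Jak2WT GLUT1/3 WT and dKO clones, in that order, and 0, 0, 0 and 8 reads in the Jak2V617F clones. Its 8 reads in Jak2V617F dKO clone 3 make the pooled level at least 2.28-fold higher than in Jak2V617F GLUT1/3 WT cells, and without that clone the group is at 0. Fcer1a, the IgE-binding chain, had 1 read in 1 Jak2WT GLUT1/3 WT clone, 10 and 2 reads in the Jak2WT dKO clones and none in Jak2V617F cells. In dKO cells its pooled level was at least 3.08-fold higher in Jak2WT than in Jak2V617F, from 12 reads. Of these, 10 were in Jak2WT dKO clone 1, and the 2 reads left without that clone are under the floor and give no bound. The unfiltered limma fit gave adjusted p = 0.325. Ms4a2, the beta chain, had 3 reads, all in Jak2WT GLUT1/3 WT clone 1. Tpsb2 was listed at 0 in each library, where 3 reads would have been 0.0382 to 0.108 FPKM. Ext1, which most cells use, was also listed at 0 in all 8 libraries, so that a 0 of this table is not read as absence.

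**Figure D3:**
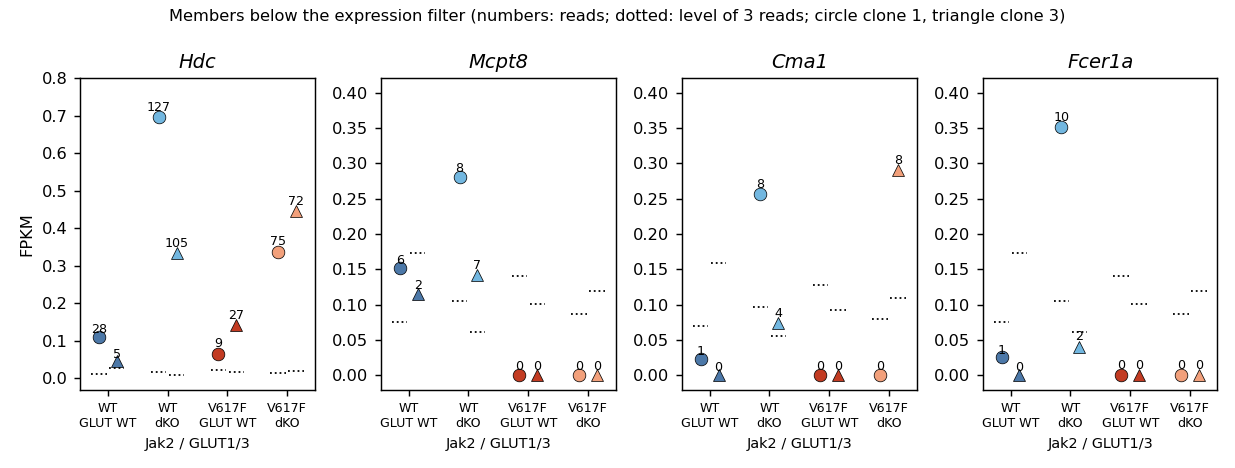
FPKM of Hdc, Mcpt8, Cma1 and Fcer1a in each library, with the number of reads above each point and a dotted mark at the level of 3 reads; circles are clone 1 and triangles clone 3. Hdc has 75 to 127 reads in 3 dKO clones and 72 in the fourth, against 5 to 28 in GLUT1/3 WT clones, and Mcpt8 has no read in the 4 Jak2V617F libraries.

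Jak2V617F dKO clone 3 was above clone 1 in Cpa3 (1.67 against 0 FPKM), Cma1 (0.291 against 0 FPKM) and Gzmb (53.6 against 23.7 FPKM). It was also above clone 1 in Gzmc, the neighbouring granzyme C gene, at 6.96 against 0 FPKM, and in Prg2, the eosinophil major basic protein, at 12.2 against 4.91 FPKM. The neutrophil granule gene Ngp stood at 8.76 against 1.11 FPKM. The part of these other lineage genes in the Cpa3 level of that clone was not tested.

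Beside Cpa3 on chromosome 3 lie Gyg, which primes glycogen, and Hltf, a DNA repair helicase. In the 4 GLUT1/3 WT libraries, where Cpa3 separated the backgrounds, Gyg stood at 29.3 to 32.3 FPKM and Hltf at 12.6 to 13.7 FPKM. In dKO libraries Gyg read 27.2 and 24.0 FPKM in Jak2WT and 12.3 and 17.9 FPKM in Jak2V617F clones. Cpb1, another carboxypeptidase gene beside Cpa3, read 0.0769, 0.0351, 0 and 0.0556 FPKM in Jak2WT libraries and was listed at 0 in the 4 Jak2V617F libraries. The microRNA gene Mir7007 lies inside Cpa3 on the same strand and was listed at 2.90 to 15.2 FPKM in Jak2WT libraries and at 0 in Jak2V617F libraries. The lncRNA gene Gm31320 overlaps Cpa3 on the opposite strand, and since the strand setting of the counting is not given in the sources used here, reads of such pairs cannot be told apart. These neighbours were chosen after their values were seen.

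Among the tested genes, those most like Cpa3 over the 8 libraries were Podnl1 (Pearson r = 0.997), Paqr8 (0.996) and Fut7 (0.991), on log2(FPKM + 1). Fut7, a fucosyltransferase of selectin ligand synthesis, read 7.27 to 8.93 FPKM in Jak2WT and 0.770 to 1.85 FPKM in Jak2V617F libraries. The 8 points form the 2 backgrounds, and 119 tested genes reached an r of 0.95 with Cpa3. For Gzmb the nearest genes were S1pr2 (r = 0.986), Ccdc50 (0.983) and Slc25a15 (0.975). For Srgn they were Itpkb (0.994), Mboat7 (0.986) and the phosphatase gene Ptpn6 (0.984), and for Fcer1g Zfp984 (0.987), Gm12174 (0.964) and Dph6 (0.962). All these values share the same 8 libraries and clones, and they are given as a description.

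Most of the defining mast cell markers were listed at 0. Of 8 listed markers, 2 passed the expression filter, Cpa3 and Slc18a2, and 5 were listed at 0 throughout, among them Kit, the stem cell factor receptor that defines mast cells, Tpsab1, Mcpt4 and Mrgprb2. Slc18a2, the vesicle transporter that loads amines such as histamine into granules, stood at 90.8 to 207 FPKM in all 8 libraries. It was higher in Jak2V617F than in Jak2WT GLUT1/3 WT cells, by 0.54 on the log2 scale (limma, adjusted p = 0.0126), where Cpa3 was lower. That Slc18a2 call was lost with libraries scaled to the same total and without clone 3 of either group. In dKO cells Slc18a2 was lower in Jak2V617F, with a log2 difference of -0.42 (limma, adjusted p = 0.0473), a call lost in 13 of 18 alternatives. In Jak2V617F cells it fell by 0.97 with dKO (limma, adjusted p = 0.00148). Of 6 basophil markers, Mcpt9 and Prss34 were listed at 0, Il4 stood at 0.679 to 1.11 FPKM, and only Itga2 passed the filter. In bulk libraries, fewer cells of a type and less RNA per cell cannot be told apart.

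Some granule genes of other lineages were also lower in Jak2V617F. Of 5 tested neutrophil genes, 4 were called lower in Jak2V617F than in Jak2WT, in GLUT1/3 WT and in dKO cells, with median log2 differences of -3.40 and -2.87. All 4 calls held under all 18 alternatives in GLUT1/3 WT cells, but in dKO cells 1 did, that on Ltf, and Ngp, S100a8 and S100a9 lost theirs in 8, 5 and 1. The fifth, Prtn3, a protease of primary granules, was not called, with 0.13 and 0.62 (limma, adjusted p = 0.799 and 0.240). The median over all tested genes was 0.0076 and -0.023. Of all tested genes, 14.9% were called lower and 15.3% higher in Jak2V617F in GLUT1/3 WT cells, and 9.96% and 7.12% in dKO cells. The summed level of the 9 listed neutrophil genes was 90.2 to 218 FPKM in Jak2WT and 10.7 to 12.5 FPKM in Jak2V617F GLUT1/3 WT libraries, with the promyelocyte gene Mpo at or under 0.0885 FPKM. In dKO libraries it was 76.2 to 125 and 6.48 to 24.7 FPKM. Both tested eosinophil genes, Prg2 and the peroxidase Epx, were lower in Jak2V617F GLUT1/3 WT cells, with log2 differences of -5.41 and -5.08 (limma, adjusted p = 0.000448 and 4.01e-05). In dKO cells 1 of the 2 was called, Epx with -2.52 (limma, adjusted p = 0.000582), and Prg2 had -1.44 (0.0611). The summed level of the 6 eosinophil genes was 91.8 to 131 FPKM in Jak2WT and 0.519 to 1.64 FPKM in Jak2V617F GLUT1/3 WT libraries, and 25.8 to 37.6 against 5.46 to 14.2 FPKM in dKO libraries. Of 5 tested erythroid genes, 4 were called higher in Jak2V617F in both comparisons, with 2 of these calls in GLUT1/3 WT and 3 in dKO cells held under all alternatives. The summed level of the 7 listed was 94.0 to 112 FPKM in Jak2WT and 500.2 to 800.3 FPKM in Jak2V617F GLUT1/3 WT libraries, and 224 to 275 against 1141 to 2456 FPKM in dKO libraries. The part of these lineage genes in the Cpa3 and Gzmb differences was not tested. Summed macrophage genes stood at 57.0 to 57.6 and 52.2 to 68.1 FPKM in Jak2WT and Jak2V617F GLUT1/3 WT libraries and at 64.5 to 72.9 and 21.9 to 26.4 FPKM in the dKO libraries, with C1qa at 0 and Csf1r at or under 0.0523 FPKM. Of 3 tested megakaryocyte genes, 2 were higher in Jak2V617F GLUT1/3 WT cells and 3 in dKO cells, among them Itga2b (in GLUT1/3 WT cells, limma log2 difference 1.48, adjusted p = 0.000101). The third in dKO cells, Pf4, was lost in 11 of 18 alternatives and read 28.2 and 2.03 FPKM in the Jak2V617F dKO clones. Of the 6 T and NK cell genes and the 3 B cell genes, none passed the filter, and their summed levels stayed at or under 0.531 and 0.708 FPKM.

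**Figure D4:**
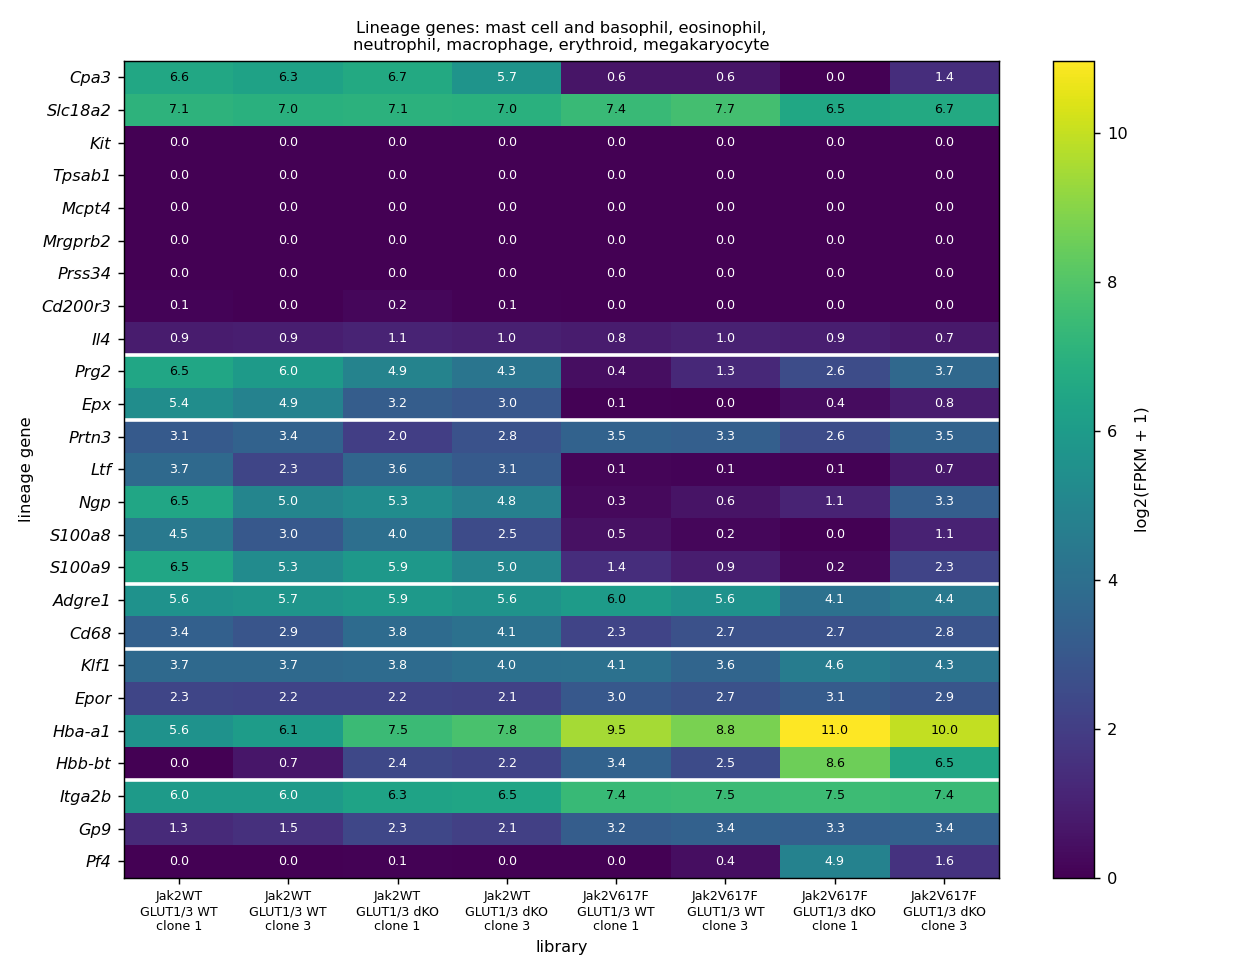
log2(FPKM + 1) of lineage genes (rows, in blocks for mast cell and basophil, eosinophil, neutrophil, macrophage, erythroid and megakaryocyte genes) in the 8 libraries (columns). Cpa3, Prg2, Epx, Ltf, Ngp, S100a8 and S100a9 are higher in each of the 4 Jak2WT libraries than in any Jak2V617F library, Slc18a2 is high in all 8, and Kit, Tpsab1, Mcpt4 and Mrgprb2 are at 0.

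Beside the members, 18 granule protease and inhibitor genes were listed, of which 9 were at 0 in all libraries and 7 could be tested. In Jak2V617F against Jak2WT 2 were called higher and 3 lower, in GLUT1/3 WT and in dKO cells. The shares over all tested genes were 15.3% and 14.9% in GLUT1/3 WT and 7.12% and 9.96% in dKO cells. Of the calls in the list, 3 in GLUT1/3 WT and 4 in dKO cells held under all 18 alternatives. Serpins, which are protease inhibitors, were among the higher and the lower genes. Serpinb6b rose by 1.70 and 1.59 (limma, adjusted p = 8.87e-05 and 0.000193), and Serpinb9, the inhibitor of granzyme B, rose by 1.00 and 1.12 (0.00295 and 0.00324) on the log2 scale. Serpinb1a, an inhibitor of neutrophil proteases, read 7.24 and 4.83 FPKM in Jak2WT GLUT1/3 WT and 110 and 66.0 FPKM in Jak2WT dKO clones. It read 0.385, 0.626, 0.225 and 5.39 FPKM in the Jak2V617F clones. It was lower in Jak2V617F by limma in GLUT1/3 WT cells, with -2.21 (adjusted p = 0.0435, lost in 12 of 18 alternatives), and in dKO cells, with -4.95 (0.00416). Serpina3g had -3.05 in GLUT1/3 WT cells (limma, adjusted p = 0.0180, lost in 4 of 18) and was not called in dKO cells, with -1.28 (0.270). The dKO difference of Serpinb1a in Jak2WT was 3.64 (limma, adjusted p = 0.0169). That call was lost in 6 of 18 alternatives, among them those without any 1 of the 4 Jak2WT libraries. Serpinb1a was the 1 gene of the list called higher there, and 1 was called lower, against 7.62% and 6.06% of all tested genes. In Jak2V617F cells dKO gave 1 higher and 2 lower calls, against 13.7% and 16.2% of all tested genes. The lower ones were Serpinb6b (limma, -0.58, adjusted p = 0.00408) and Ctsc, the peptidase that activates granule proteases (-0.65, 0.00543). The median differences of the list were -1.05 and -0.78 between backgrounds and 0.32 and 0.44 for dKO, against all-gene medians between -0.023 and 0.0082.

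Of 18 genes of granule storage and amine handling, 12 were tested. For Jak2V617F against Jak2WT 4 were called higher and 2 lower in GLUT1/3 WT cells, against 15.3% and 14.9% of all tested genes. None was called higher and 3 lower in dKO cells, against 7.12% and 9.96%. The medians were 0.18 and -0.18. In Jak2V617F cells dKO gave 1 higher and 6 lower calls, against 13.7% and 16.2% of all tested genes, with a median of -0.33. In Jak2WT cells it gave 1 higher and 3 lower calls, against 7.62% and 6.06%, with a median of 0.043. Under all 18 alternatives 1 of the 6 calls between backgrounds held in GLUT1/3 WT cells and 1 of the 3 in dKO cells, 5 of the 7 for dKO in Jak2V617F and none of the 4 in Jak2WT. Rab27a, which docks secretory granules, was 16.2 and 16.3 FPKM in Jak2WT and 5.45 and 4.47 FPKM in Jak2V617F GLUT1/3 WT clones (limma, log2 difference -1.53, adjusted p = 0.00126). Its paralog Rab27b fell with dKO by 0.82 in Jak2WT (limma, adjusted p = 0.00576) and by 0.69 in Jak2V617F cells (0.00289). Ndst2, which sulfates heparin chains, fell with dKO by 0.56 in Jak2WT (limma, adjusted p = 0.0266, lost in 5 of 18 alternatives) and by 0.72 in Jak2V617F cells (0.00502).

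All 20 listed genes of IgE receptor signalling were tested, although the alpha and beta chains were at or near 0. In GLUT1/3 WT cells 6 were called higher and 4 lower in Jak2V617F, against 15.3% and 14.9% of all tested genes. In dKO cells 4 were called higher and 5 lower, against 7.12% and 9.96%. The medians were -0.073 and -0.015. Under all 18 alternatives 6 higher and 2 lower calls held in GLUT1/3 WT cells, but 2 and 2 in dKO cells, where those on Cblb and Dok1 were lost in 12 and 8 alternatives. Lyn, the kinase that phosphorylates the receptor chains, read 26.4 and 26.6 FPKM in Jak2WT and 74.0 and 64.7 FPKM in Jak2V617F GLUT1/3 WT clones (limma, log2 difference 1.35, adjusted p = 0.000260). The adaptors Lcp2 and Lat rose by 0.95 and 1.13 (limma, adjusted p = 0.000853 and 0.00196). Pik3cd, the leukocyte PI3-kinase subunit, read 57.0 and 58.5 against 24.8 and 23.2 FPKM (limma, -1.23, adjusted p = 0.000525). Syk, the kinase that binds the gamma chain, stood at 7.70 to 10.5 FPKM in all libraries and was called in no comparison. For dKO, 2 of the 20 were called higher and 4 lower in Jak2WT, against 7.62% and 6.06% of all tested genes. In Jak2V617F cells none was called higher and 5 lower, against 13.7% and 16.2%. The medians for dKO were -0.054 and -0.10. Of the dKO calls, 3 lower ones in Jak2V617F and none in Jak2WT held under all alternatives.

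**Figure D5:**
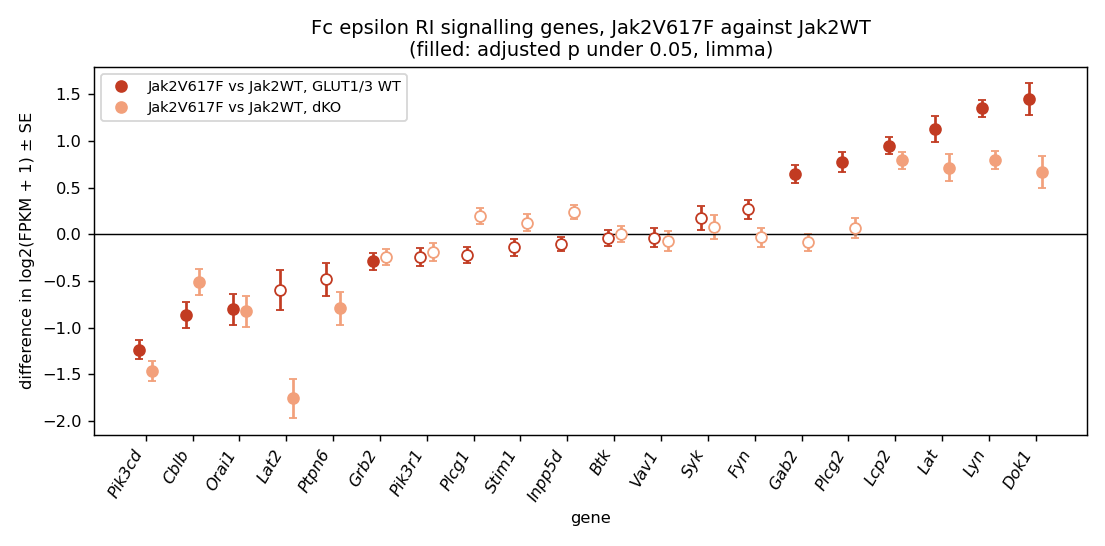
Difference in log2(FPKM + 1) between Jak2V617F and Jak2WT for the 20 IgE receptor signalling genes, in GLUT1/3 WT and in dKO cells, with standard errors; filled points have an adjusted p under 0.05 (limma). Lyn and Lcp2 are higher and Pik3cd lower in both under all 18 alternatives, the calls on Dok1, Lat and Cblb in dKO cells and on Orai1 in both are lost in some alternatives, and Btk lies near 0.

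Of 4 other Fc receptors listed with the common gamma chain, 3 were tested. In Jak2V617F GLUT1/3 WT cells 2 were called higher and 1 lower, against 15.3% and 14.9% of all tested genes. Fcgr1, the high-affinity IgG receptor, read 4.57 and 4.39 FPKM in Jak2WT and 13.9 and 13.9 FPKM in Jak2V617F GLUT1/3 WT clones (limma, log2 difference 1.44, adjusted p = 0.000682). In Jak2V617F dKO clones it read 4.13 and 3.37 FPKM, a log2 difference of -1.66 (limma, adjusted p = 0.000463). In this list dKO gave no higher and 2 lower calls in Jak2V617F cells and none in Jak2WT. Over all tested genes dKO gave 13.7% higher and 16.2% lower calls in Jak2V617F and 7.62% and 6.06% in Jak2WT cells. Fcgr3 read 6.40 and 4.89 FPKM in Jak2V617F GLUT1/3 WT clones and at most 0.222 FPKM in Jak2WT libraries. Fcgr2b, the inhibitory receptor that does not need the gamma chain, had a log2 difference of -1.27 (limma, adjusted p = 0.0153), a call lost in 4 of 18 alternatives. In dKO cells none of the 3 was called higher and 2 were called lower, against 7.12% and 9.96% of all tested genes. The 2 were Fcgr1 and Fcgr2b, each lost in 4 of 18 alternatives, and Fcgr3 had 0.96 (limma, adjusted p = 0.0550). Over the same libraries Fcer1g itself kept within 1.28-fold.

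Of 26 growth factor receptors and regulators listed, 15 were tested. In GLUT1/3 WT cells 4 were called higher and 5 lower in Jak2V617F, against 15.3% and 14.9% of all tested genes. In dKO cells the calls were 4 and 4, against 7.12% and 9.96%, and the medians were -0.0071 and -0.026. For dKO, 1 was higher and 1 lower in Jak2WT, against 7.62% and 6.06%. In Jak2V617F cells 2 were higher and 5 lower with dKO, against 13.7% and 16.2%. The medians for dKO were -0.066 and -0.19. Under all alternatives 3 of the 9 calls between backgrounds held in GLUT1/3 WT cells and 3 of the 8 in dKO cells, and 2 of the 7 for dKO in Jak2V617F and none of the 2 in Jak2WT. Gata2, which mast cells and their progenitors need, stood at 116 to 163 FPKM and was called in no comparison. Gata1 was higher by 0.81 in Jak2V617F GLUT1/3 WT cells (limma, adjusted p = 0.00423), and by 0.48 in dKO cells (0.0418, lost in 8 of 18 alternatives). Tal1, a partner of the GATA factors, stood at 66.9 to 149 FPKM and was called higher in all 4 pairwise comparisons. Its log2 differences were 0.60 and 0.52 for dKO in Jak2WT and Jak2V617F cells (limma, adjusted p = 0.0171 and 0.0137), and 0.53 and 0.44 for Jak2V617F in GLUT1/3 WT and dKO cells (0.0122 and 0.0364). Each of these 4 calls was lost in 3 to 7 of 18 alternatives. Il6, a cytokine of activated mast cells, read 9.91 and 8.74 FPKM in Jak2WT and 1.35 and 1.13 FPKM in Jak2V617F GLUT1/3 WT clones (limma, -2.20, adjusted p = 0.00368). Il3ra, the alpha chain of the interleukin-3 receptor, stood at 6.61 to 9.38 FPKM and was called higher in Jak2V617F GLUT1/3 WT cells (limma, 0.35, adjusted p = 0.0251, lost in 6 of 18 alternatives). The beta chain gene Csf2rb and its near-identical paralog Csf2rb2, whose reads may be split between them, were lower with dKO in Jak2V617F cells, with log2 differences of -1.29 and -1.41 (limma, adjusted p = 0.00126 and 0.00102).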

How the data were processed

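RNA of 8 clones of 32D cells, 2 in each of 4 groups, was measured by poly(A) RNA-seq. Per the labels, the authors trimmed with fastp 1.0.1, aligned with HISAT2 2.2.1 to mm39 and counted with featureCounts 2.0.6. The values used are the deposited FPKM, made by the authors from counted fragments, gene length and library total. The annotation release and the strand setting are not given in the sources used here. Multiplying FPKM by gene length recovered whole reads for 100% of the values above 0, within 0.01 of a read. The recovered totals give the depth, 16846011 to 48884329 reads per library, and intervals and floors from them cover counting error only.

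All 8 value columns were assigned to samples by the labels. log2(FPKM + 1) of the 11818 genes with at least 1 FPKM in at least 2 libraries was fitted with limma 3.58.1 (R 4.3.3) with an intensity trend, as 1 fit of 4 group means with 4 residual and 3.34 prior degrees of freedom. Benjamini-Hochberg adjustment ran over all genes tested, and an adjusted p under 0.05 was called. Of the 10 members, 4 passed the filter; the other 6 are given as reads and FPKM. The test was checked on simulated data with a coefficient of variation between clones of 0.1 for every gene. It called 176 of 200 genes changed 2-fold and 10 unchanged genes. The 2 Jak2WT dKO clones differed 4.59-fold in Gzmb, so that check does not give the power for such a gene. Named are all 10 members, genes of lists whose counts are given, and for each tested member the 3 genes with the highest Pearson r. The members and lists were chosen with earlier results of these data known. Upstream windows were read from the GRCm39 genome with GENCODE M39. Figures used matplotlib 3.10.9. The 18 alternatives to the fit changed the pseudocount, the filter, the variance model, the scaling, the unit (voom on recovered reads), the samples fitted and the clone block, or left out each library in turn. A further transgene that all groups share is not reported here.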

Additional observations from a re-analysis of the deposited data

Results flagged for a closer look

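No member's dKO difference was called as differing between the backgrounds, but 15 of the 74 listed genes tested were, 3 higher and 12 lower, by limma's test of the difference itself, against 4.72% of all tested genes called higher and 5.91% called lower. Values are the dKO difference in Jak2V617F minus that in Jak2WT cells on the log2(FPKM + 1) scale. The eosinophil genes Prg2 (3.96) and Epx (2.56) and the granule-docking gene Rab27a (0.93) had positive values. Among Fc receptors the values were -2.06 for Fcgr1 and -1.71 for Fcgr3. Among signalling genes they were -0.73 for Gab2, -0.55 for Lyn and -0.70 for Plcg2. Among granule genes they were -0.95 for Slc18a2, -0.79 for Snap23 and -0.87 for Ctsc. The receptor genes Csf2rb and Csf2rb2, which are near-identical in part, had -0.87 and -0.94. The macrophage marker Adgre1 had -1.66 and the platelet glycoprotein gene Gp9 -0.73. Without Jak2V617F dKO clone 3, Prg2 had 3.38 and Epx 2.34 and kept the call, while Rab27a (0.71, limma adjusted p = 0.0689), Lyn, Plcg2, Csf2rb, Csf2rb2 and Gp9 lost it. Each of the 15 lost the call in at least 1 of 17 alternatives, with no change of sign. Groups of 2 clones are too small for a test of outlying samples.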

How the results depend on the processing

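Of the alternative values of the 4 tested members, 315 kept direction and side of the threshold, 24 lost a call, 4 gained one and 13 changed sign. For dKO in Jak2WT the count of members called, 1, became 0 without the expression filter, without the trend, with libraries scaled to the same total and with the clone number as a replicate block, and 2 with voom on recovered reads; leaving out libraries gave 0 to 1. For dKO in Jak2V617F the count of 0 became 1 with the same total and with voom, and 0 to 1 with libraries left out. For Jak2V617F against Jak2WT the 3 calls became 1 without the filter, with 1 to 3 when libraries were left out; in dKO cells the 2 calls became 1 without the filter and 1 with the compared groups alone, with 1 to 2 when libraries were left out. The filter changes the number of genes adjusted over; the cause of the other changes was not tested.

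Sign changes touched differences that were not called. Cpa3 for dKO in Jak2V617F was -0.61 with a pseudocount of 0.1, -2.42 with voom and -0.63 without dKO clone 3, with leave-one-out values from -0.63 to 0.79. Its dKO difference in Jak2WT was 0.22 without dKO clone 3, with leave-one-out values from -0.75 to 0.22. Its interaction was -0.34 with the pseudocount of 0.1, -2.06 with voom, and -0.14 and -0.36 without the dKO clones 3 of Jak2WT and Jak2V617F, with leave-one-out values from -0.36 to 1.06. Gzmb for dKO in Jak2V617F was -0.78 without GLUT1/3 WT clone 3 and -0.44 without dKO clone 3, with leave-one-out values from -0.78 to 1.04. The Srgn interaction was 0.049 with the same total, 0.016 with voom and 0.025 without Jak2V617F dKO clone 1, with leave-one-out values from -0.31 to 0.025.

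Clone numbers do not pair the samples. The clones are separate, and the correlations between groups of the clone 3 minus clone 1 differences ran from -0.25 to 0.15. With the replicate block the Srgn dKO difference in Jak2WT had limma adjusted p = 0.0692, and no other member's call changed. Scaling to the same total moved library medians by -0.11 to 0.097 on the log2 scale. Where leaving out a library left a lone clone, it was assumed to vary like the other groups. Depth limits Mcpt8, Cma1, Fcer1a and Ms4a2, which had 3 to 23 reads, were below the filter and were tested in the unfiltered fit alone. For the 74 listed genes tested beside the members, 1 of 20 calls held under all alternatives for dKO in Jak2WT, 16 of 30 for dKO in Jak2V617F, 26 of 45 between backgrounds in GLUT1/3 WT cells, 20 of 40 in dKO cells and 0 of 15 for the interaction. Over all genes, the 901 higher and 716 lower calls for dKO in Jak2WT became 402 and 312 without the filter, 1018 and 1587 with voom, and as few as 74 and 36 without Jak2WT GLUT1/3 WT clone 1. For dKO in Jak2V617F, 1614 and 1919 became 764 and 853 with the compared groups alone, and 1114 and 1017 without GLUT1/3 WT clone 1. For Jak2V617F against Jak2WT, 1812 and 1765 became 1399 and 2655 with voom, and 802 and 881 without Jak2WT clone 1. In dKO cells 842 and 1177 became 633 and 714 without the filter, 1342 and 1344 with voom, 436 and 592 with the compared groups alone, and 272 and 348 without Jak2WT dKO clone 1. For the interaction 558 and 698 became 165 and 181 without the filter, 1321 and 575 with voom, and 2 and 3 without Jak2WT GLUT1/3 WT clone 3.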
